A study of Mus musculus with 12 samples.

Results

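The genes described here are 10 that take part in the response to lipopolysaccharide (LPS). The receptor genes are Tlr4, Ly96, Cd180 and Ly86, and the adaptor genes are Myd88 and Ticam1. The others are the kinase genes Irak1, Irak2 and Irak3 and the ubiquitin ligase gene Traf6. The 10 genes were taken by symbol from the deposited table of normalized counts, in which all were found among 29486 listed genes. All 10 were also among the 15579 genes that had a scaled value of at least 10 in at least 4 libraries, and each of them stood above that minimum in all 3 conditions.

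Total mRNA was sequenced from splenic B cells of C57BL/6Babr mice that had been activated in culture with LPS (10 µg/ml). In 4 libraries the cells had received LPS alone for 48 h. In 4 libraries the cells received LPS for 48 h and then etoposide (20 µM, 4 h), a topoisomerase II poison that breaks both DNA strands. In 4 libraries the cells received LPS for 47 h, then KU55933 (10 µM), an inhibitor of the DNA damage kinase ATM, for 1 h, and then etoposide for 4 h. Every group therefore held LPS, the ligand of TLR4. The labels spell the inhibitor KU59933, give no age of the mice, and do not say how long the culture with LPS alone went on after 48 h. No library had KU55933 without etoposide or cells without LPS, so that the inhibitor is seen only on top of etoposide. Illumina indexes were not shared between conditions, so that index and condition cannot be told apart.

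TLR4, bound to MD-2 (the product of Ly96), recognizes LPS on the cell surface. CD180, also called RP105, resembles TLR4 outside the cell, pairs with MD-1 (the product of Ly86) and is best known on B cells, where it takes part in the response to LPS. Inside the cell, MyD88 joins activated receptors to IRAK kinases, which hand the signal to TRAF6 and on to NF-kB and MAP kinases, while TRIF (the product of Ticam1) serves TLR3 and TLR4 on the route to interferon genes.

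The 4 columns of a condition were proportional to each other throughout the table, to within 1.4e-14 in log2 units. The table therefore holds 1 fitted value per condition, multiplied by a factor for each library, and no spread between replicates. For this reason no test was made on the table and no p-value is given: a difference is described as past or within 1.5-fold, and was not set against replicate error. The deposited values of a gene within a condition differ by the library factor alone. Whether their ranges overlap between conditions therefore says nothing about agreement of replicates. Library totals of the deposited values, in units of 1000000, were 20.7 to 23.9 with LPS, 22.5 to 30.6 when etoposide was added and 20.4 to 25.1 when KU55933 was added too. Values were divided by a size factor per library (median of ratios over all genes), and the result is called the scaled value below. Intervals are at the 95% level, treat the summed deposited values as counts, and cover counting error only. Fold changes are on the scale of log2(scaled value + 1).

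Of the 10 genes, 6 were past 1.5-fold lower with etoposide than with LPS alone (Cd180, Ticam1, Ly86, Irak2, Irak3 and Irak1) and none was past 1.5-fold higher. Over all genes, 20.1% were past 1.5-fold lower and 19.7% past 1.5-fold higher in this comparison, and 49.4% of the genes past 1.5-fold were higher. With KU55933, 2 of the 10 genes were past 1.5-fold lower than with etoposide alone (Cd180 and Tlr4) and none was past 1.5-fold higher, against 10.9% lower and 7.86% higher over all genes. Cells with KU55933 and etoposide, set against LPS alone, had 6 genes past 1.5-fold lower (Cd180, Tlr4, Ly86, Ticam1, Irak2 and Irak3) and again none higher, against 18.0% and 18.7% over all genes. Of these, Ticam1 was past it under 5 of 6 scalings, Irak2 under 3 and Irak3 under 1, so that the count of 6 depends on the scaling. The median log2 fold change of the 10 genes was -0.72, -0.066 and -0.64 in these comparisons, beside -0.11, -0.0087 and -0.039 over all genes. The first and the last comparison share the LPS libraries, and the first and the second share the etoposide libraries, so that the comparisons are not independent of each other. These are bulk RNA samples, in which fewer cells of a type and less RNA per cell cannot be told apart.

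**Figure D1:**
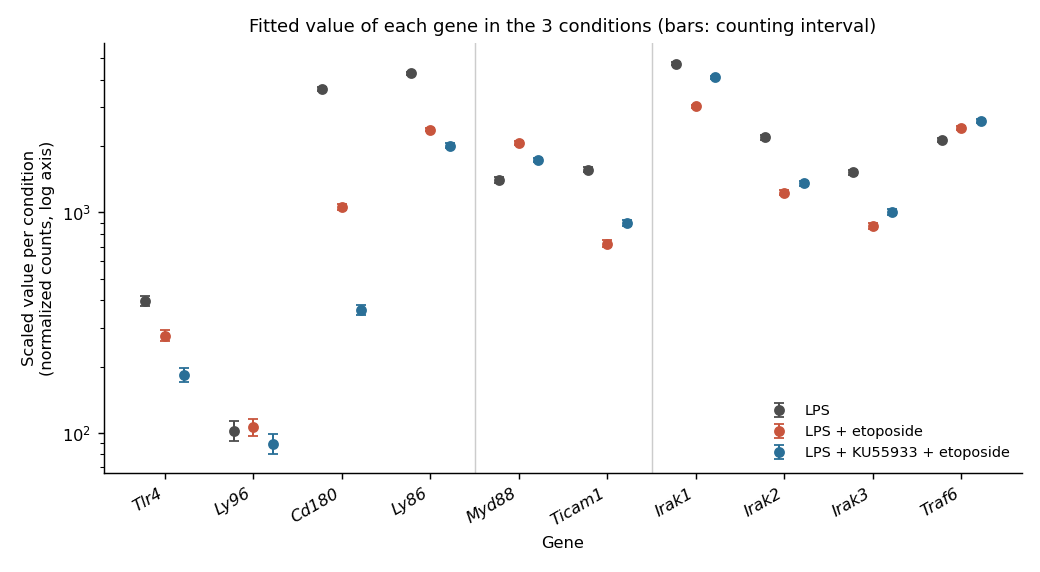
Scaled value of each gene (log axis) with LPS (grey), with LPS and etoposide (red) and with LPS, KU55933 and etoposide (blue), with bars for the 95% counting interval. Each point is 1 fitted value. Cd180 goes from 3628 to 1059 and 362, while Myd88 and Traf6 are lowest with LPS alone.

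The choice of scaling bears on the genes near the 1.5-fold line. Over 6 scalings the median of all genes in etoposide against LPS lay between -0.11 and 0.11, and the share of genes past 1.5-fold that were higher was 49.4% with the size factors used here, 44.5% with quantile normalization, 52.3% with TMM factors, 58.4% and 64.0% with size factors from genes with a mean of at least 10 and of at least 100, and 68.0% with library totals. In KU55933 and etoposide against LPS the median lay between -0.039 and 0.20, and the share was 51.0%, 49.1%, 54.0%, 57.6%, 63.0% and 72.1% in the same order. Relative to the median of all genes, the change with etoposide was -1.67 for Cd180, -1.01 for Ticam1, -0.74 for Ly86, -0.72 for Irak2, -0.69 for Irak3, -0.53 for Irak1 and -0.41 for Tlr4. It was 0.67 for Myd88, 0.29 for Traf6 and 0.16 for Ly96. Measured this way Irak1 is within 1.5-fold and Myd88 is past it.

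**Figure D2:**
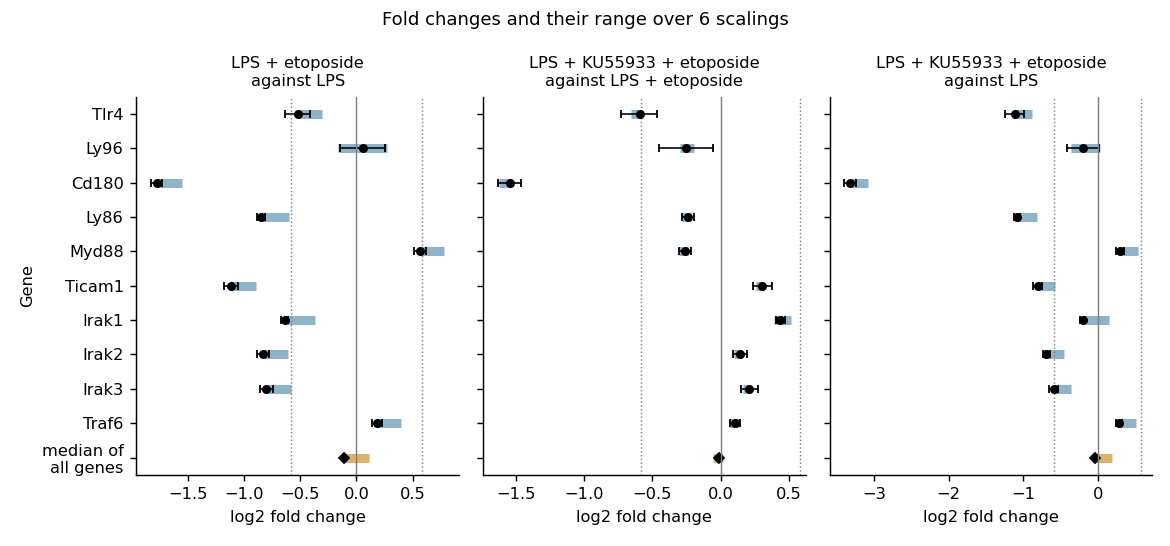
The log2 fold change of each gene in each of the 3 comparisons (points, with bars for the 95% counting interval), its range over 6 scalings (blue bands) and the median of all genes (diamond, with its own range as an orange band). Dotted lines mark 1.5-fold. Cd180 lies beyond the lower line in all comparisons and under all scalings.

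Cd180 (ENSMUSG00000021624, chr13:102693558-102739629, plus strand, GRCm38) had by far the lowest value relative to LPS of the 10 genes. The deposited values were 2860, 3173, 3301 and 2974 in the LPS libraries 1 to 4. They were 1055, 1182, 1432 and 1146 in the libraries with LPS and etoposide. They were 330, 372, 399 and 406 in the libraries with KU55933 as well. The ranges of the 3 conditions did not overlap, but their width reflects the library factors alone, here and for the genes below. After scaling the values were 3628, 1059 and 362, so that the transcript was 3.42-fold lower with etoposide and a further 2.92-fold lower with the inhibitor. The log2 fold changes were -1.78 (counting interval -1.82 to -1.73) and -1.54 (-1.63 to -1.46), and -3.32 (-3.40 to -3.25) from LPS to KU55933 with etoposide. Cells with the inhibitor held 10.0% of the value with LPS alone. The gene was past 1.5-fold lower under all 6 scalings in each comparison.

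Ly86 (ENSMUSG00000021423, chr13:37345208-37419036, plus strand), which encodes the MD-1 partner of CD180, was lower with etoposide too, by a smaller factor. Its deposited values were 3362 to 3881 with LPS, 2362 to 3207 with etoposide and 1831 to 2249 with KU55933 and etoposide. The last 2 unscaled ranges do not touch but stay close, which says nothing about agreement of replicates. The scaled values were 4266, 2372 and 2009. Ly86 was thus 1.80-fold lower with etoposide (log2 fold change -0.85, counting interval -0.88 to -0.81), past 1.5-fold under all 6 scalings. The further difference with KU55933 was within 1.5-fold (-0.24, -0.28 to -0.20). Per length of exons, the ratio of Cd180 to Ly86 transcript was 0.685, 0.360 and 0.145 in the order LPS, etoposide, and KU55933 with etoposide, so that the receptor transcript was lower than that of its partner to a growing extent.

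The promoters of these partners are shown because the products form 1 receptor complex and both transcripts were lower with etoposide. Promoters were found for 8 of the 10 genes in the RefSeq table (build GRCm38.p6, from 250 bases before to 50 bases after the start). They were searched on both strands for the octamer core ATGCAAA of Oct factors, the ETS core GAGGAA bound by PU.1, the interferon response core (GAAA, any 2 bases, GAAA) and the kB core (GGG, any 5 bases, CC), and matches of different motifs may overlap. Among 32851 promoters of 300 bases, 4.63% held the first, 28.3% the second, 3.44% the third and 50.8% the last. The Cd180 promoter at chr13:102693297-102693596 (plus strand) held 2 octamer matches, 64 bases before the start on the plus strand and 18 bases before it on the minus strand, in capitals below, and none of the other motifs. A second Cd180 entry, at chr13:102693308-102693607, held the same 2 matches 75 and 29 bases before its start. The Ly86 promoter at chr13:37345095-37345394 (plus strand) held none of the 4. A match is a run of letters and does not show that a factor binds.
Cd180: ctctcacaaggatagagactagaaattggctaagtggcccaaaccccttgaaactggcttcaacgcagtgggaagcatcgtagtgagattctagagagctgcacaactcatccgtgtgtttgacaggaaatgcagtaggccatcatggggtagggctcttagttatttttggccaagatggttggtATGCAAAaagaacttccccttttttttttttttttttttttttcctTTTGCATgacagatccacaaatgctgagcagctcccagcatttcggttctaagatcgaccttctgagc
Ly86: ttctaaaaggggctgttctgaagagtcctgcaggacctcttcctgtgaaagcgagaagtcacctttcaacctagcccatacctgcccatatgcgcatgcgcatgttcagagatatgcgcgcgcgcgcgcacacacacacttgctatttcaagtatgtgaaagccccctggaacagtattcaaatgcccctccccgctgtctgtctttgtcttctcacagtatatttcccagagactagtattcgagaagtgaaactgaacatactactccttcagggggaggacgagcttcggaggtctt

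Tlr4 (ENSMUSG00000039005, chr4:66827584-66930284, plus strand), the signalling receptor for LPS, was per length of exons 11.3 times less abundant than Cd180 with LPS alone. The LPS libraries 1 to 4 had deposited values of 313, 347, 361 and 325, those with etoposide 275, 308, 373 and 299, and those with KU55933 and etoposide 167, 188, 201 and 205. Before scaling, the values with the inhibitor lay below all others, and those with LPS and with etoposide overlapped. Where such unscaled ranges lie depends on the library factors too, and their separation says nothing about agreement of replicates. The scaled values of 397, 276 and 183 put Tlr4 at 69.7% of the LPS value with etoposide and at 46.3% with the inhibitor. The log2 fold change with etoposide was -0.52 (counting interval -0.63 to -0.41), within 1.5-fold under all 6 scalings. With KU55933 against etoposide it was -0.59 (-0.73 to -0.46), only just past 1.5-fold and past it under 5 of 6 scalings, with a counting interval on both sides of the line. With both agents against LPS it was -1.11 (-1.25 to -0.99) and past 1.5-fold under all 6.

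Ly96 (ENSMUSG00000025779, chr1:16688051-16709611, plus strand), which encodes the MD-2 partner of TLR4, differed least of the receptor genes in both comparisons against LPS alone. Its deposited values were 80.8 to 93.3 with LPS, 106 to 144 with etoposide and 81.4 to 99.99 with KU55933 and etoposide. After scaling the values were 103, 107 and 89.4, with counting intervals of 92.1 to 114, 97.2 to 116 and 80.6 to 99.0 that overlap. The log2 fold changes were 0.055, -0.25 and, against LPS with both agents, -0.20, all within 1.5-fold. The sign with etoposide turned under 1 of the 6 scalings (quantile normalization, -0.17), and 1 scaling also turned the sign of the last. Per length, the ratio of Tlr4 to Ly96 transcript was 0.711, 0.476 and 0.376 in the 3 conditions.

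Of the adaptor genes, Myd88 was higher and Ticam1 lower with etoposide. Myd88 (ENSMUSG00000032508, chr9:119335934-119341411, minus strand) encodes the adaptor of most Toll-like receptors. Its deposited values were 1104, 1225, 1274 and 1148 with LPS, 2063, 2312, 2801 and 2242 with etoposide, and 1577, 1779, 1905 and 1937 with the inhibitor. No library with LPS alone reached the lowest library of the other conditions, in unscaled values that hold no spread between replicates. The scaled values were 1400, 2071 and 1731, which is 1.48-fold higher with etoposide (log2 fold change 0.56, counting interval 0.51 to 0.62), just within 1.5-fold. Myd88 was past 1.5-fold higher under 5 of the 6 scalings, with values from 0.56 to 0.78. With KU55933 it was 0.26 lower on the log2 scale than with etoposide alone (-0.26, -0.30 to -0.21) and still 0.31 above LPS, both within 1.5-fold.

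The Myd88 promoter is shown because, of Myd88 and Ticam1, only Myd88 was higher with etoposide. The window at chr9:119339969-119340268 (minus strand) held 1 match of the interferon response core, 40 bases before the start (in capitals), and none of the other motifs.
Myd88: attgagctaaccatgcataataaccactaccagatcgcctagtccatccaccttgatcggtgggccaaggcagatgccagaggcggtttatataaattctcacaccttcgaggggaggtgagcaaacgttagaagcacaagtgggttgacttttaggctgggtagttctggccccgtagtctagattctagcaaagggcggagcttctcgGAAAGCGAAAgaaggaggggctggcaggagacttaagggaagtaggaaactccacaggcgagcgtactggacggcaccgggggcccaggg

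Ticam1 (ENSMUSG00000047123, chr17:56269319-56276786, minus strand), the gene of TRIF, had the largest change with etoposide after Cd180 among the 10 genes. In the deposited table it had 1231, 1365, 1420 and 1280 with LPS, 719, 806, 976 and 781 with etoposide, and 813, 917, 982 and 998 with KU55933 and etoposide. The unscaled values with LPS alone lay above the rest and those of the other conditions overlapped, which says nothing about agreement of replicates. Scaled values of 1561, 722 and 892 gave a 2.16-fold lower level with etoposide (log2 fold change -1.11, counting interval -1.18 to -1.05), past 1.5-fold under all 6 scalings. With the inhibitor Ticam1 was 1.24-fold above the level with etoposide alone (0.31, 0.24 to 0.37) and at 57.2% of the level with LPS, past 1.5-fold lower under 5 of 6 scalings. Per length, Myd88 and Ticam1 transcripts were about level with LPS (ratio 1.04) and stood at 3.33 with etoposide and 2.25 with KU55933 and etoposide. The Ticam1 promoter held 1 ETS match and 1 kB match.

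The IRAK genes were all lower with etoposide. Irak1 (ENSMUSG00000031392, chrX:74013914-74023918, minus strand) encodes a kinase that MyD88 recruits through IRAK4. Its deposited values were 3719, 4126, 4292 and 3868 with LPS and 3018, 3383, 4097 and 3280 with etoposide. They were 3738, 4215, 4515 and 4590 with the inhibitor. These unscaled ranges overlap, and within a condition the values differ by the library factor alone. The scaled values were 4718, 3030 and 4101. Irak1 was 1.56-fold lower with etoposide (log2 fold change -0.64, counting interval -0.67 to -0.61), but past 1.5-fold under only 2 of the 6 scalings, whose values ran from -0.64 to -0.37. With KU55933 it had the largest difference upward of the 10 genes, 1.35-fold above etoposide alone (0.44, 0.40 to 0.47), and stood at 86.9% of the LPS value. The sign of that last difference turned under 2 of the 6 scalings.

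Irak2 (ENSMUSG00000060477, chr6:113638467-113695026, plus strand), whose product sustains the response, and Irak3 (ENSMUSG00000020227, chr10:120141648-120202130, minus strand), whose product IRAK-M restrains it, had like fold changes with etoposide. The deposited values of Irak2 were 1724 to 1989 with LPS, 1224 to 1662 with etoposide and 1236 to 1518 with KU55933 and etoposide. Those of Irak3 were 1196 to 1380, 868 to 1178 and 919 to 1129. For both genes the unscaled values with LPS alone lay above the others, and the other conditions overlapped. Such separation says nothing about agreement of replicates. The scaled values of Irak2 were 2187, 1229 and 1356, with log2 fold changes of -0.83 with etoposide (counting interval -0.88 to -0.78) and 0.14 with KU55933 against etoposide. The scaled values of Irak3 were 1517, 872 and 1009, with -0.80 (-0.86 to -0.74) and 0.21. With etoposide, Irak2 was past 1.5-fold under all 6 scalings and Irak3 under 5. With both agents against LPS they were past it under 3 scalings (Irak2, -0.69) and 1 scaling (Irak3, -0.59, counting interval -0.65 to -0.53).

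Traf6 (ENSMUSG00000027164, chr2:101678429-101701669, plus strand), the ubiquitin ligase on which the MyD88 route converges, was within 1.5-fold in every comparison and under all 6 scalings. The deposited values ran from 1681 to 1940 with LPS, 2407 to 3268 with etoposide and 2372 to 2913 with KU55933 and etoposide. The scaled values of 2133, 2417 and 2603 gave log2 fold changes of 0.18 (counting interval 0.14 to 0.22) and 0.11 (0.069 to 0.15), and 0.29 against LPS with both agents. Of the other promoters, that of Traf6 held 2 ETS and 2 kB matches, those of Irak1 and Irak2 held kB matches only, and of the Irak3 entries 1 held 5 kB matches, several of them overlapping, and the other 1 ETS match and no kB match.

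Some of these transcripts share exon sequence with a neighbour on the opposite strand. The paper names a stranded mRNA library kit, but the strand setting of the read counting was not given in the sources used here. Cd180 shares 182 exonic bases (4.04% of its exons) with Mast4, whose scaled values were 1301, 2400 and 905 in the 3 conditions. Myd88 shares 290 bases (11.3%) with Acaa1a, at 1057, 672 and 1200. Irak3 shares 192 bases (5.22%) with Tmbim4, at 1145, 1507 and 1452. With etoposide against LPS, each neighbour differed in the direction opposite to the gene it overlaps. With KU55933 against etoposide, Mast4 was lower, as was Cd180, while Acaa1a and Tmbim4 differed in the direction opposite to Myd88 and Irak3. How many reads of the overlaps were counted for either gene was not tested.

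Divided by the length of the exons, the levels of the 10 genes can be compared with each other. With LPS alone, Ly86 was the most abundant transcript (1175 per kb), followed by Irak1 (1000.5), Cd180 (805), Myd88 (544), Ticam1 (522), Irak2 (496), Irak3 (413), Traf6 (271), Ly96 (100.4) and Tlr4 (71.4). Myd88 and Ticam1 were the only neighbours in that order whose counting intervals overlapped. The Cd180 transcript was 11.3 times as abundant per length as Tlr4, and Ly86 11.7 times as abundant as Ly96. LPS-activated B cells thus held far more transcript of the CD180 complex than of the TLR4 complex.

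With etoposide Myd88 came first (804 per kb), ahead of Ly86 (653) and Irak1 (643), whose intervals overlapped. Traf6 (307) and Irak2 (279) followed, and Ticam1 (241), Irak3 (237) and Cd180 (235) could not be ordered, since the intervals of each and the next overlapped. Ly96 (104) and Tlr4 (49.7) were again last. With KU55933 and etoposide the order was Irak1 (870), Myd88 (672), Ly86 (553), Traf6 (330), Irak2 (307), Ticam1 (298), Irak3 (274), Ly96 (87.5), Cd180 (80.4) and Tlr4 (32.9), with overlapping intervals for Irak2 and Ticam1 and for Ly96 and Cd180. By the values alone, Cd180 went from the third place to the eighth and the ninth, and the last 2 places are not settled because of these overlaps. Its ratio to Tlr4 went from 11.3 to 4.73 and 2.44. With the length of the longest transcript in place of all exons, Cd180 took the second, the fourth and the eighth place, and Ly86 led with etoposide.

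**Figure D3:**
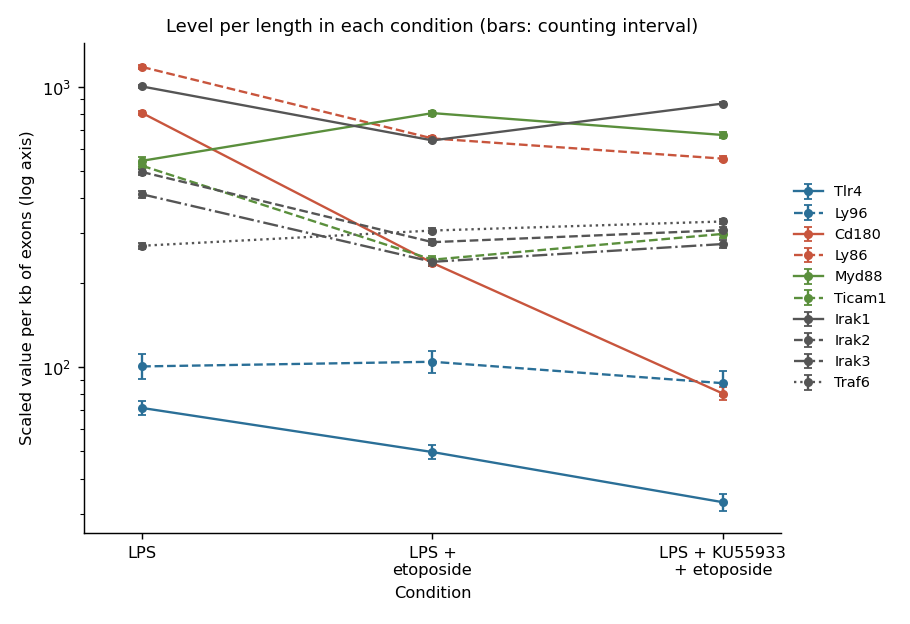
Scaled value per kb of exons (log axis) of each gene in the 3 conditions, with 95% counting intervals. The TLR4 complex is drawn in blue, the CD180 complex in red, adaptors in green and the IRAK kinases and TRAF6 in grey, and lines join the values of 1 gene. Cd180 starts at 805 per kb, near Ly86 and Irak1, and ends at 80.4 per kb, next to Ly96.

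A further 70 genes of the Toll-like receptor pathway were listed by role, in 6 lists. Of these, 62 passed the filter and were described in the same way, while Tlr11 and Lrrc33 were not found by symbol. With etoposide 18 of the 62 (29.0%) were past 1.5-fold lower and 9 (14.5%) higher than with LPS alone, with a median of -0.15 (16 to 18 lower and 9 to 15 higher over the 6 scalings), beside 20.1% lower and 19.7% higher over all genes. With KU55933 against etoposide 4 were lower and 4 higher (6.45% each; 3 to 4 and 3 to 6 over the scalings), with a median of 0.039, beside 10.9% and 7.86% over all genes. With both agents against LPS 18 (29.0%) were lower and 12 (19.4%) higher, with a median of -0.096, beside 18.0% and 18.7% over all genes. Over the 6 scalings 12 to 18 were lower and 12 to 14 higher, so that more lower than higher genes were not seen under every scaling.

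The other Toll-like receptors were mostly lower with etoposide: 5 of the 7 that passed the filter were past 1.5-fold lower, under all 6 scalings, and none higher except Tlr3 under 1 scaling (median -0.93). Tlr7, a sensor of single-stranded RNA in endosomes and per length the most abundant of them, had scaled values of 4326, 1648 and 2480 (-1.39 and 0.59). The second difference was just past 1.5-fold, under 4 of 6 scalings. Tlr1 (2802, 1107 and 1073; -1.34) and Tlr6 (363, 190 and 218; -0.93), which pair with TLR2 to sense lipopeptides, were lower with etoposide and within 1.5-fold of that level with the inhibitor. Tlr12, a sensor of protozoan profilin, was lower in both steps, at 111, 46.5 and 29.7 (-1.24 and -0.63). The fifth was Tlr9, a sensor of CpG DNA, at 1694, 901 and 858, named after its values were seen. Tlr2 (336, 402 and 302) and Tlr3 (114, 150 and 122) were within 1.5-fold in this scaling, Tlr5, Tlr8 and Tlr13 did not pass the filter, and Tlr11 was not analysed here.

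Of 5 genes for LPS transfer and receptor chaperones that passed the filter, 2 were lower and 1 higher. Cd14, the coreceptor that hands LPS to TLR4 and MD-2, stood at 5.37, 23.6 and 40.4 in the 3 conditions, a low level that passed the filter only through the last 2 of them. It was the gene of this list that was past 1.5-fold higher with KU55933 than with etoposide alone. Unc93b1, which carries TLR7 and TLR9 to endosomes, had values of 11874, 7348 and 10841 (-0.69 and 0.56), and was past 1.5-fold lower with etoposide under 3 of 6 scalings. Hsp90b1, the chaperone gp96 of most Toll-like receptors, had values of 27213, 17283 and 17311 (-0.65), past 1.5-fold under 2 of 6.

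All 4 further adaptor genes passed the filter. Sarm1, the gene of an adaptor with NADase activity, had values of 19.3, 150 and 128 (2.90 with etoposide). Ticam2, the gene of TRAM, which links TLR4 to TRIF, had 648, 319 and 279 (-1.02), and thus was lower alongside Ticam1. Pik3ap1, which encodes the PI3 kinase adaptor BCAP, had 6512, 3264 and 3424 (-0.996). Tirap, which brings MyD88 to TLR4, was within 1.5-fold (912, 848 and 704).

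Among 20 downstream kinases and ubiquitin enzymes that passed the filter, 3 were lower with etoposide and 2 higher (2 to 6 higher over the 6 scalings). Peli3, a Pellino ubiquitin ligase gene, had values of 6.02, 187 and 109, and passed the filter only through the last 2. Ikbke, which encodes the kinase IKK epsilon on the route from TRIF to interferon genes, had 1273, 5295 and 3162 (2.06 and -0.74). Syk, a kinase shared with the B cell receptor and per length the most abundant gene of this list, had 29005, 9707 and 10046 (-1.58). Btk, another kinase of both pathways, had 4924, 2453 and 2594 (-1.01). The third lower gene was Peli1, at 2529, 1387 and 2052, named after its values were seen. Peli3 and Ikbke were the genes of this list that were past 1.5-fold lower with KU55933.

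Among 16 negative regulators that passed the filter, 3 were lower with etoposide and 3 higher. Nlrx1 (177, 583 and 452; 1.71) and Irak1bp1 (84.5, 228 and 191; 1.42) were higher, as was Cyld, the gene of a deubiquitinase of TRAF6, at 3830, 7199 and 5313, named after its values were seen. Inpp5d, the gene of the lipid phosphatase SHIP-1, was lower (5899, 2369 and 2500; -1.32), as were Nlrc3 (494, 262 and 252; -0.91) and Sigirr (648, 363 and 473), the last also named after its values were seen. Trafd1, whose level per length was the highest of the list with KU55933 and etoposide, had 3390, 4896 and 6090, and was past 1.5-fold higher with etoposide under 4 of 6 scalings but not in the scaling used here (0.53). With KU55933 against etoposide, 1 gene of the list was past 1.5-fold lower, Tnip3 (166, 117 and 66.2; -0.82).

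All 10 transcription factor genes passed the filter, and 3 were lower and 2 higher with etoposide. Fos (59.1, 815 and 896; 3.76) and Jun (986, 3002 and 3766; 1.61), which encode the parts of AP-1, were higher with etoposide and within 1.5-fold of that level with KU55933. Irf8, a factor of B cell and myeloid development, was lower (14147, 3371 and 3714; -2.07), as were Nfkb1, the gene of p105 and p50 (13203, 5646 and 6095; -1.23), and Irf5, which acts downstream of MyD88 (4021, 1819 and 2556), named after its values were seen. With KU55933 against etoposide Irf7 (2993, 2771 and 5372) and Atf3 (1624, 1891 and 3364) were past 1.5-fold higher, both named after their values were seen.

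**Figure D4:**
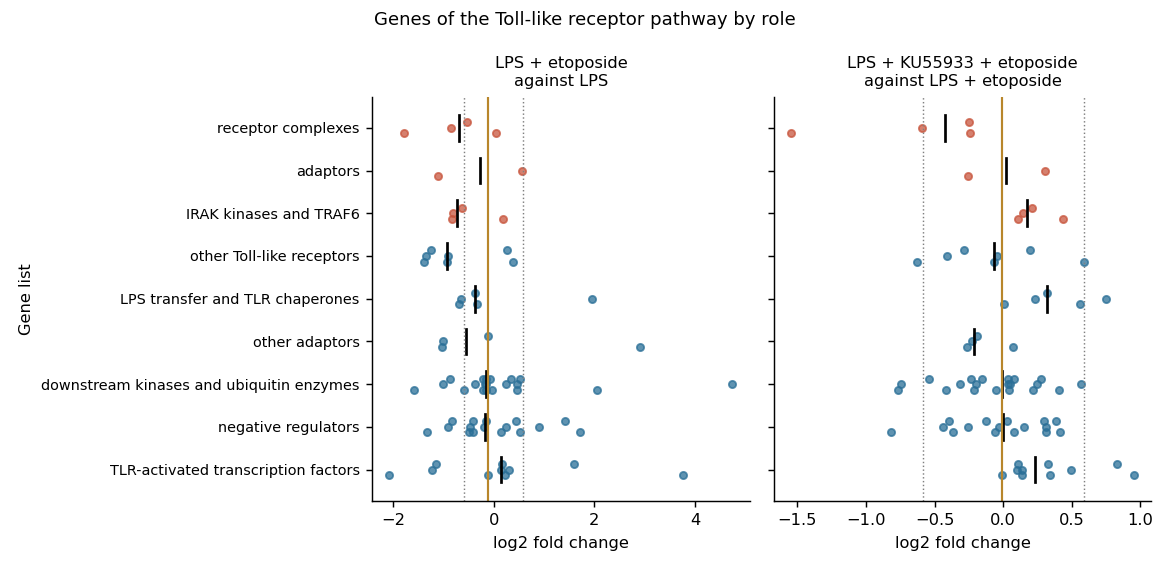
The log2 fold change of the 10 genes (red, by role) and of the 62 other pathway genes that passed the filter (blue, by list), in etoposide against LPS and in KU55933 and etoposide against etoposide. Black ticks are list medians, the ochre line is the median of all genes and dotted lines mark 1.5-fold. The other Toll-like receptors centre on -0.93 on the left and on -0.070 on the right.

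The genes of these 6 lists nearest in pattern to Tlr4, by the distance between their pairs of log2 fold changes against LPS, were Tnip3 (distance 0.20), Traf3 (0.34) and Ube2n (0.36). Those nearest to Myd88 were Chuk (0.11), Map3k8 (0.11) and Zc3h12a (0.21). The distance rests on 3 conditions and 58 candidate genes with a mean of at least 100, and is a description.

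The labelled cell type was checked against marker genes. B cell markers were abundant throughout, with summed scaled values of 108773, 53729 and 52791 in the 3 conditions. All 5 of them (Cd79a, Cd79b, Ms4a1, Pax5 and Cd22) were past 1.5-fold lower with etoposide in this scaling, and 2 to 5 of them over the 6 scalings. Ms4a1, the highest of them with LPS, went from 32521 to 20085 and 13291. The B cell genes were thus lower beside Cd180 and Ly86, and their part in the receptor values was not tested. Marginal zone and B-1 cell markers, of which 6 of 7 passed the filter and 2 were lower with etoposide, summed to 21415, 15668 and 14889, with Mzb1 the highest (12143, 11529 and 10348). The 2 lower genes were Cr2 (5696, 1863 and 1659) and Dtx1 (2602, 1342 and 2138). Mzb1, Cd1d1 (439, 331 and 343), S1pr3 (239, 190 and 118) and Cd9 (289, 407 and 278) were within 1.5-fold with etoposide in this scaling. Cd5 did not pass the filter.

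In sum, markers of other cells stood far below those of B cells. Of single genes, Flt3 stood above the B cell marker Pax5 (5749, 1095 and 1161) in both conditions with etoposide. Macrophage and monocyte markers summed to 604, 565 and 512, with 6 of 8 past the filter. Itgam, the highest with LPS, was lower with etoposide (229, 126 and 114), while Cd68, the highest in the other conditions (108, 206 and 174), and Csf1r (4.33, 10.1 and 9.67) were past 1.5-fold higher, under all 6 scalings. Csf1r lay near the minimum and passed the filter only through the condition with LPS and etoposide, where it was highest. Its counting interval with etoposide, 0.33 to 2.14 in log2, lay on both sides of the 1.5-fold line. Over the 6 scalings 1 to 3 macrophage markers that passed the filter were higher. Ly6c2 (172, 127 and 118), Adgre1 (50.8, 44.1 and 39.3) and Lyz2 (35.6, 46.9 and 51.0) were within 1.5-fold in this scaling, and Mertk and Fcgr1 were under 4 everywhere. Neutrophil markers summed to 2.53, 15.1 and 4.66, where S100a8, S100a9, Ly6g and Elane were under 1 and Mpo made up most of the sum. Dendritic cell markers summed to 3061, 1864 and 3386, mostly Flt3 (2906, 1612 and 2930), with Siglech and Clec9a under 1. Of the 3 that passed the filter, Flt3 was past 1.5-fold lower with etoposide, and Zbtb46 (107, 177 and 405) and Xcr1 (42.8, 68.1 and 45.0) were higher. Zbtb46 was past 1.5-fold higher in every comparison and under all 6 scalings, and the part of such cells in the receptor values was not tested. T and NK cell markers summed to 5.29, 6.17 and 6.82 with none past the filter. Red blood cell markers summed to 217, 134 and 99.7, mostly Hbb-bt (152, 91.1 and 69.2). Macrophages also express Tlr4 and Cd14, and the part of such cells in those values was not tested.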

How the data were processed

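Splenic B cells were profiled by mRNAseq in 12 libraries, 4 per condition. The authors trimmed reads with Trim Galore and cutadapt 1.2.1, mapped them with TopHat2 2.0.12, counted them with HTSeq on Ensembl 78 genes and fitted DESeq2 1.6.3. The deposited table holds a signal per gene and library, called normalized counts. Since it holds fitted values (as described in the report), the limma test planned for values with replicate spread was not run, and no fit could use the replicate number. Whether the fitted values were moderated toward equal levels, as this version of DESeq2 can do, is not given in the sources used here. The authors also deposited 3 tables of their own comparisons, with each gene's mean, log2 fold change, standard error, Wald statistic and raw and adjusted p-values. None of these was used.

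Columns were divided by size factors by median of ratios (0.788 to 0.910 with LPS, 0.996 to 1.35 with etoposide, 0.911 to 1.12 with KU55933 as well) and averaged per condition. These factors rest on all 29486 genes, since no listed value was 0, and 14480 of the genes had a mean under 10. Genes were kept if 4 or more libraries had a scaled value of at least 10, a pseudocount of 1 was added and a difference past 1.5-fold was counted. Counting intervals came from exact binomial shares of summed values. Lengths and overlaps came from GENCODE M21, which gave a length for 99.5% of the kept genes. Python 3.11.15 with numpy 2.4.6, pandas 2.3.3, scipy 1.17.1 and matplotlib 3.10.9 was used, and the functions were tested on simulated data.

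The 10 genes, the lists and the rules were chosen with earlier results of these data known. Genes named from a pathway list are the up to 4 with the largest change past 1.5-fold in etoposide against LPS or KU55933 against etoposide and the gene with the highest level per length in any condition, and from a marker list the highest. Genes named beyond this rule are marked as such, except Cd79a, Cd79b, Pax5, Cd22 and the other markers, which are listed to complete a marker list, and the neighbours that overlap a gene. Of the B cell markers, 1 is not reported here and is left out of the counts and sums. Alternatives were TMM factors (trims of 30% and 5%), library totals, quantile normalization, pseudocounts of 0.5 and 5, no filter, a minimum of 50, calls at 2-fold and at a log2 fold change of 0.32, the longest transcript and leaving out each library. Size factors from genes with a mean of at least 10 or at least 100 were added after the data were seen.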

Additional observations from a re-analysis of the deposited data

How the results depend on the processing

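No paired analysis was possible because the 4 columns of a condition hold 1 fitted value and no spread between replicates. For the same reason leaving out any 1 library moves only the size factors, by at most 0.014 on the log2 scale for a gene described here, and says nothing about replicate error. Among the 10 genes, no fold change past 1.5-fold turned its sign under these alternatives.

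In etoposide against LPS, 1 of the 10 genes (Myd88) was past the fold called and higher with TMM factors, library totals, quantile normalization, size factors from genes with a mean of at least 10 or at least 100, and a call at a log2 fold change of 0.32, instead of 0. The median of the 10 genes was -0.50 with library totals, -0.54 with quantile normalization, and -0.62 and -0.55 with the size factors from genes of at least 10 and 100. At 2-fold, 2 of the 10 were lower, beside 1159 of the 15579 genes kept. With library totals 4 of the 10 were lower, beside 1860 over all genes.

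For KU55933 and etoposide set against etoposide alone, 1 of the 10 genes (Cd180) was lower with library totals, a pseudocount of 5 and a call at 2-fold, and 1 (Irak1) was higher at the call of 0.32. Over all genes 1639 were lower with library totals and 670 at 2-fold, and 3032 were higher at the call of 0.32. In KU55933 and etoposide against LPS, 3 of the 10 were lower with library totals and at 2-fold, beside 1619 and 1067 over all genes. With TMM factors 5 of the 10 were lower, beside 2608 over all genes. The median of the 10 was -0.41 with library totals, -0.49 with quantile normalization, and -0.57 and -0.51 with the size factors from genes of at least 10 and 100.

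Over all genes, library totals gave 1860 lower in etoposide against LPS (3138 with the size factors used) and 1619 lower in KU55933 and etoposide against LPS (2804). A minimum of 50 gave 1946 higher in etoposide against LPS (3068), 1074 lower in KU55933 and etoposide against etoposide (1691) and 1905 higher in KU55933 and etoposide against LPS (2918). At 2-fold the genes lower and higher were 1159 and 2039, 670 and 306, and 1067 and 1568 in the 3 comparisons. At the call of 0.32, 5486 were lower in the first, 3390 lower and 3032 higher in the second, and 4974 lower and 4414 higher in the third.

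Depth limits mainly Ly96 and Tlr4, the least abundant of the 10 genes. Whether any difference exceeds the spread between cultures cannot be read from fitted values.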
